A study of Mus musculus with 6 samples.

Results

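The 9 genes of bone morphogenetic protein (BMP) signalling described here are the targets Id1, Id2, Id3, Id4, Smad6 and Bambi, the ligand Bmp4, the antagonist Grem1 and the type I receptor Bmpr1a. They were found by their symbol in the authors' deposited table. Each of the 9 had 1 row on the array, out of 22308 named genes and 35556 rows. Expression was measured on Affymetrix arrays in 3 samples of Clone 4L.1.4, a tertiary clone, and in 3 samples of MSC21, the mouse bone marrow mesenchymal cell population from which the clone was derived. All 6 samples were cultures grown to confluence in a commercial stem cell medium, with no treatment named; the labels name no strain, sex, age or genotype. The clone group is a single clonal line, so it stands for that line and not for clones in general, and the labels do not say that the samples of a group came from separate animals; the p-values thus reflect only how much these cultures varied.

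BMPs are secreted signals of the TGF-beta superfamily that direct mesenchymal cells towards bone and cartilage and also act in fat formation. They bind paired serine/threonine kinase receptors, which phosphorylate Smad1, Smad5 and Smad9; these enter the nucleus with Smad4 and switch on target genes, among them the Id genes. The pathway is held back outside the cell by secreted antagonists such as gremlin and inside it by the inhibitory Smads, and several of these inhibitors are themselves targets, which closes a feedback loop.

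All values are log2 levels after RMA, an Affymetrix method that corrects background, equalises the distributions of the arrays and summarises probes, so each level is relative to the other genes of the same array. In cultures of mixed cells, fewer cells of a type and less RNA per cell cannot be told apart. Array medians lay between 5.19 and 5.25 and lower quartiles between 4.54 and 4.58; levels near these carry little signal, and differences there are compressed. Of 12 stromal markers, Col1a1, Col1a2, Prrx1, Pdgfra, Pdgfrb, Ly6a and Itgb1 stood at 9.54 or higher in both groups. Eng, 4.88 in the clone and 4.89 in the population, lay below the array medians in both. Thy1 and Nt5e did so in the clone only, at 4.61 and 4.55 there against 6.43 and 6.35 in the population. Of these 12 markers, 3 were higher in the clone (Pdgfra, Pdgfrb and Prrx1) and 6 lower (Col1a2, Cd44, Ly6a, Thy1, Nt5e and Itgb1). Over all named genes 14.5% were higher and 14.5% lower. Among named genes at least as bright as the dimmest of the BMP genes above, 26.9% were higher and 25.9% lower. The summed log2 level of the 12 markers was 111.06 to 111.15 on the clone arrays and 114.4 to 114.9 on the population arrays. What part these marker differences have in the BMP differences was not tested. All 5 endothelial markers lay between 4.27 and 4.55 in both groups, as did the leukocyte gene Ptprc at 4.39 in the clone and 4.37 in the population, so these markers were at the low end of the arrays. Their summed level was 21.8 to 22.2 on the clone arrays and 22.07 to 22.10 on the population arrays for the endothelial list, and 27.3 to 27.9 on the clone arrays and 28.4 to 28.5 on the population arrays for the 6 leukocyte markers, of which 1, Cd53, was lower in the clone, at 4.48 against 5.35 in the population. The 3 erythroid markers on the array lay between 4.30 and 4.50.

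In the clone, 6 of the 9 BMP genes were higher than in the population, 1 was lower and 2 did not pass the test (limma's moderated test, Benjamini-Hochberg adjusted p under 0.05 over all rows). Across all named genes 29.1% passed, 14.5% higher and 14.5% lower. Among the 10276 named genes at least as bright as the dimmest of the 9, 52.8% passed, 26.9% higher and 25.9% lower. The 4 Id genes, Smad6 and Bmp4 rose, Grem1 fell, and Bambi and Bmpr1a were not called. The median log2 difference, clone minus population, was 1.02 over the 9 genes and -0.01 over all named genes.

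Upstream sequences are shown for 3 Id genes that rose together and for Grem1, which fell, because the Id genes are textbook Smad targets. Bases further upstream than these windows were not searched. Each run covers the 250 bases before the RefSeq start of the gene on build GRCm38.p6, written 5′ to 3′ on the gene's own strand. The search was for GGCGCC, a GC-rich element found in BMP-responsive promoters, which reads the same on both strands, and for GTCTG, which holds the short Smad binding element. The second motif reads CAGAC on the other strand, and capitals mark all matches.
Id2, chr12:25096093-25096342, minus strand: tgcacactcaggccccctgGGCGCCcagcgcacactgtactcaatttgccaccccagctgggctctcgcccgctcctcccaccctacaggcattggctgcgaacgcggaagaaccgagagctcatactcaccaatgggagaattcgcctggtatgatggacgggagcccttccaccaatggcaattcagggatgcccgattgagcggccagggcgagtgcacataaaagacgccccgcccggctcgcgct
Id3, chr4:136143572-136143821, plus strand: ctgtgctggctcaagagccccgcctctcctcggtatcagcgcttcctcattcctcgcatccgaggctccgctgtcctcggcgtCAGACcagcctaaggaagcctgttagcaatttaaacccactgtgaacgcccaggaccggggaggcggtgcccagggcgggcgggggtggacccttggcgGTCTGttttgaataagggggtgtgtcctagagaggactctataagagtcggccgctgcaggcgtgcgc
Id4, chr13:48260866-48261115, plus strand: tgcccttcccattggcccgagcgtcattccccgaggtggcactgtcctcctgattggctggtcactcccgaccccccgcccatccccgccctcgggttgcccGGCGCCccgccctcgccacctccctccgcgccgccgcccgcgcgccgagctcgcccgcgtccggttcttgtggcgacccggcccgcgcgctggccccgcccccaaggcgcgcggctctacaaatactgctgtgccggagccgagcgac
Grem1, chr2:113758649-113758898, minus strand: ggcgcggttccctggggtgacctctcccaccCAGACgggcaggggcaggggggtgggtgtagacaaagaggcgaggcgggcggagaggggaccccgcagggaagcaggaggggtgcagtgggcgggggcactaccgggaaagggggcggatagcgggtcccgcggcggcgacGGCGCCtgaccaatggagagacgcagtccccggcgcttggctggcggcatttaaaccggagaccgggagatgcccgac

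Sequence windows were matched for 7 of the 9 genes; Id1 and Bambi are named only. GGCGCC was present in 4 of the 7 windows. It starts 231 bases before the gene start in Id2, 148 in Id4, 78 in Grem1 and 198 in Bmpr1a. GTCTG was present in 2 of the 7, at 167 and 68 bases before the start in Id3 and 219 in Grem1, and neither motif overlapped the other. The windows of Smad6 and Bmp4 held neither. The short Smad binding element itself, GTCT, is shorter than GTCTG and was not searched for alone. A window without GTCTG can still hold it, as the Id2 window does in its other-strand form, AGAC. Of all 32851 RefSeq windows, 9.59% held GGCGCC and 42.2% held GTCTG. The 7 windows had a GC content of 62.8% to 78.8%, above the median of 52.4% over all windows; of the 7115 windows with at least 62.8% GC, 29.2% held GGCGCC and 36.3% held GTCTG. The motif was thus shared by genes that rose (Id2, Id4), a gene that fell (Grem1) and one that was not called (Bmpr1a).

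Id proteins are helix-loop-helix factors without a DNA-binding region that pair with E proteins and keep lineage factors off the DNA. Id1 had the largest difference of the 9 genes. Its log2 levels were 8.99, 8.74 and 8.86 on the clone arrays, against 6.46, 6.34 and 6.41 on the population arrays. All 3 clone arrays lay at least 2.29 above every population array, which is far beyond the spread within either group. The mean was 8.86 ± 0.12 in the clone and 6.40 ± 0.06 in the population (SD, n = 3 each), a log2 difference of 2.46 ± 0.08 (SE) with limma adjusted p = 4.21e-06. Only 0.359% of named genes had a larger absolute difference, and among rises Id1 ranked 33 of 22308.

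Id4, which takes part in neural and osteoblast differentiation in the mouse, followed among the Id genes. It read 6.54, 6.38 and 6.27 in the clone, against 5.02, 4.93 and 4.74 in the population. The groups were separated by 1.25, but all 3 population values lay below the array medians, so the size of this rise is not exact. The fold was 2.83 (95% confidence interval 2.40 to 3.33; limma adjusted p = 9.30e-05). Id4 lies on chromosome 13, where the 423 genes at or above the median level had a median log2 difference of -0.58, so it went the other way from its chromosome, by 2.08 relative to that median; relative to the median of all named genes of the chromosome its difference was 1.63.

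Id2, an Id gene with roles in lymphoid and fat lineages, was well above the array medians in both groups. It stood at 9.35, 9.23 and 9.50 in the clone, against 8.39, 8.37 and 8.25 in the population. The lowest clone array was 0.84 above the highest population array, and the fold was 2.03 (95% confidence interval 1.77 to 2.33; limma adjusted p = 0.000222). Id3, the paralogue whose levels changed least, stood at 9.718, 9.732 and 9.747 in the clone, against 8.998, 9.264 and 9.110 in the population. The clone arrays of Id3 were close together (SD 0.01), the population arrays less so (SD 0.13), and the groups did not overlap. Id3 was 1.52-fold higher in the clone (95% confidence interval 1.35 to 1.73; limma adjusted p = 0.00137), and 10.5% of named genes had a larger absolute difference.

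The 4 paralogues were also compared with each other by the size of their rise. The response of Id1 exceeded that of Id3 by 1.85 ± 0.13 log2 units, that of Id2 by 1.43 ± 0.10 and that of Id4 by 0.96 ± 0.11 (SE, from the difference of both genes within each array, n = 3 arrays each). The response of Id4 exceeded that of Id3 by more than the spread as well: Id3 minus Id4 was -0.89 (95% confidence interval -1.31 to -0.47). Id2 minus Id3 was 0.42 (95% confidence interval 0.09 to 0.74) and Id2 minus Id4 was -0.47 (-0.86 to -0.08). In all 6 pairs the clone and population arrays were fully separated, which gives the exact two-sided permutation test its smallest possible p of 0.1 in each (0.1 after Benjamini-Hochberg adjustment over the 6 pairs), so this test cannot pass 0.05 with 3 arrays a group. The gaps that involve Id4 are not exact, because its population levels lay below the array medians, where differences are compressed, and the SE and intervals do not cover this. Because each gene was read by its own probes, these are differences between responses and say nothing of which paralogue is more abundant.

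**Figure D1:**
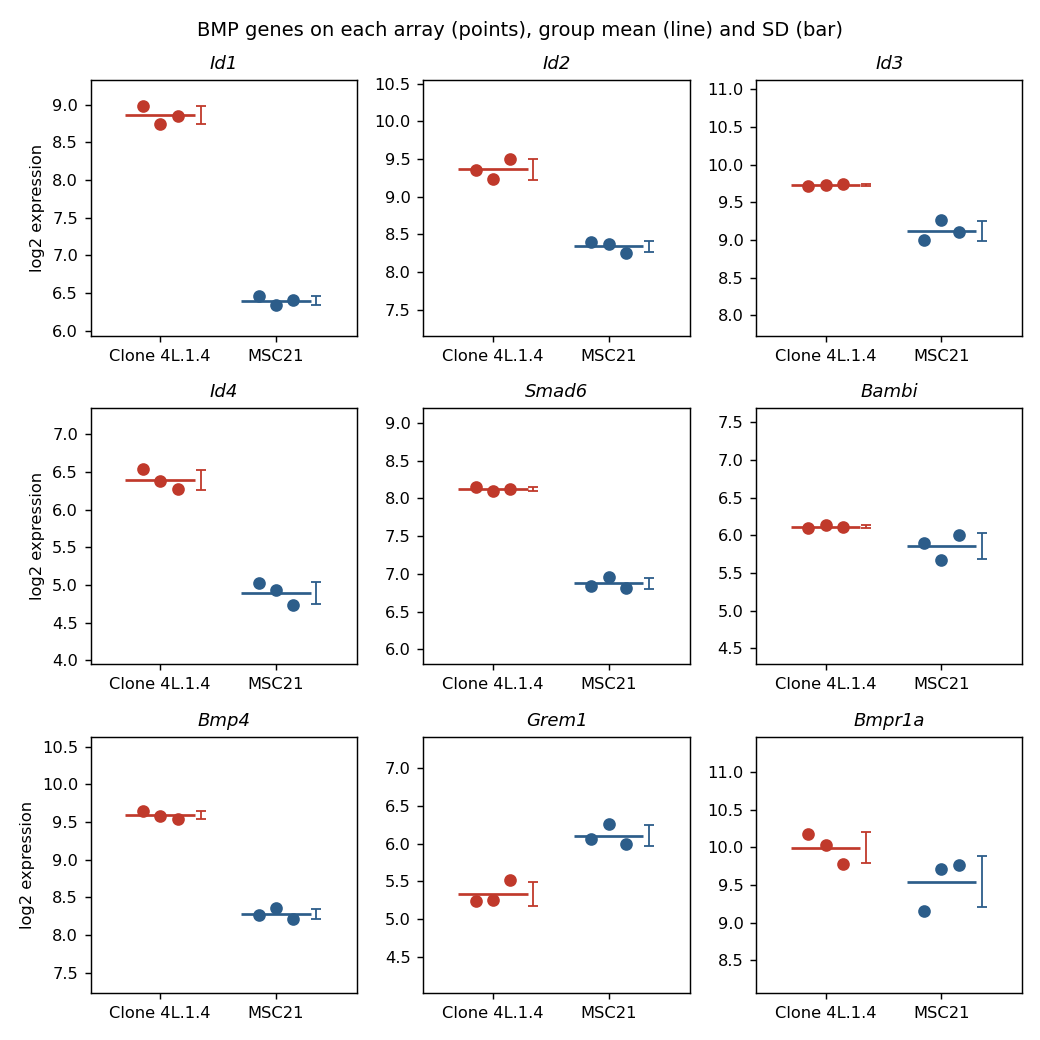
Log2 expression of the 9 BMP genes on each array, with the 3 clone arrays left of the 3 MSC21 population arrays; points are arrays, horizontal lines group means and vertical bars SD, and every panel spans the same number of log2 units. Id1 shows the widest separation (means of 8.86 in the clone and 6.40 in the population), Grem1 is the gene with lower clone arrays, and in Bmpr1a and Bambi the groups nearly touch.

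Smad6 and Bambi are feedback inhibitors that BMP signals switch on: Smad6 is an inhibitory Smad that blocks receptor and Smad1 activity, and Bambi is a pseudoreceptor without a kinase. Smad6 stood at 8.15, 8.10 and 8.12 in the clone, against 6.84, 6.96 and 6.82 in the population. The groups were separated by 1.14 and both were tight. Smad6 was 2.38-fold higher in the clone (log2 difference 1.25 ± 0.06, SE; limma adjusted p = 2.19e-05), ranking 172 among rises.

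Bambi stood at 6.10, 6.14 and 6.11 in the clone, against 5.90, 5.67 and 6.01 in the population. The clone arrays lay above the population arrays, but by only 0.10, and the clone arrays were closer together (SD 0.02, against 0.17 in the population). The log2 difference of 0.26 (95% confidence interval 0.05 to 0.47) did not pass (limma adjusted p = 0.0823, unadjusted p = 0.0226). Without population array 3 it was 0.33 and passed (adjusted p = 0.0408), so whether Bambi passes depends on that array.

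Bmp4, a BMP ligand with osteogenic activity, rose. It read 9.64, 9.57 and 9.54 in the clone, against 8.26, 8.35 and 8.21 in the population. The clone arrays were at least 1.19 above the population arrays, and the fold was 2.48 (95% confidence interval 2.24 to 2.73; limma adjusted p = 2.09e-05). Of 13 BMP ligand genes, 2 were higher and 11 were not called, where 14.5% of all named genes were higher and 14.5% lower. Of the 13, 10 lay below the array medians in both groups, and the list median was 0.0011. The other ligand that rose was Bmp5, a further osteogenic ligand, at 5.01 ± 0.04 in the clone and 4.38 ± 0.06 in the population (SD, n = 3 each; limma adjusted p = 0.00031), levels that themselves lay below the array medians.

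Grem1 encodes gremlin, a secreted antagonist that binds BMP2, BMP4 and BMP7 and keeps them from their receptors. It was the gene of the 9 that fell. It stood at 5.24, 5.25 and 5.51 in the clone, against 6.07, 6.26 and 5.99 in the population. The highest clone array was 0.48 below the lowest population array, and the clone arrays lay close to the array medians, so the size of the fall is not exact. The log2 difference was -0.77 ± 0.10 (SE; limma adjusted p = 0.00199), or 1.71-fold lower in the clone. The 832 genes of chromosome 2 at or above the median level, which include Id1 and Grem1, had a median of 0.13.

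Bmpr1a, the type I receptor for BMP2 and BMP4, was bright in both groups and did not pass. It read 10.17, 10.03 and 9.78 in the clone, against 9.15, 9.71 and 9.77 in the population. The groups were separated by only 0.01, and population array 1 lay apart from the other two population arrays. The log2 difference was 0.45 (95% confidence interval 0.02 to 0.88; limma adjusted p = 0.133, unadjusted p = 0.0422); without population array 1 it was 0.26. This interval leaves room for a rise of up to 1.84-fold.

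**Figure D2:**
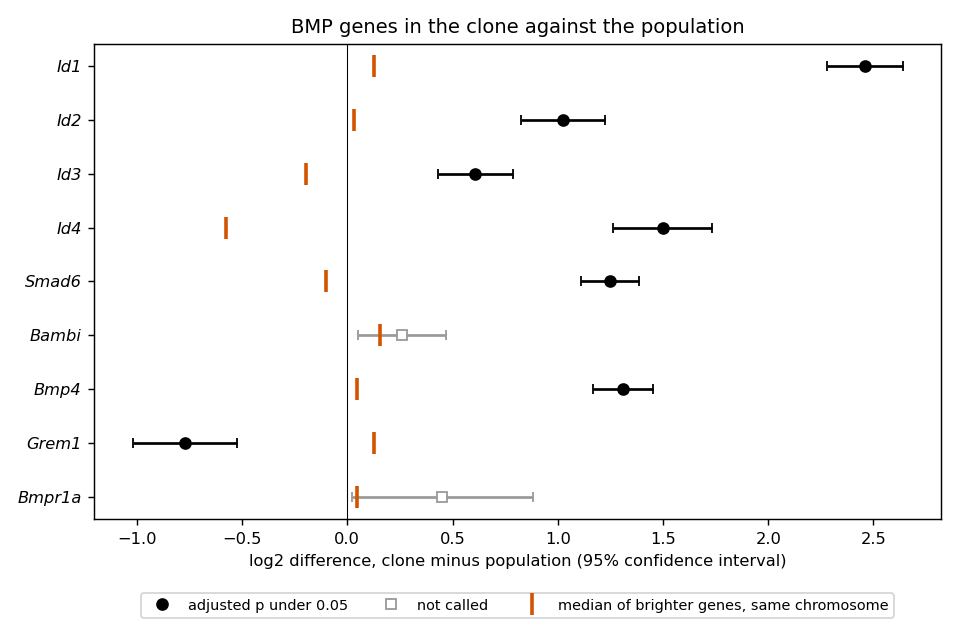
Log2 difference, clone minus population, of each BMP gene with its 95% confidence interval; filled circles passed the test, open squares did not, and the orange ticks give the median difference of the genes at or above the median level on the same chromosome. The 6 genes that rose lie between 0.61 and 2.46, Grem1 lies at -0.77, and the tick for Id4 lies at -0.58, on the other side of 0 from the gene.

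In all 9 genes the 3 arrays of one group lay above the 3 of the other, 8 with the clone above and 1 with the clone below; over all named genes 43.1% had no overlap, 21.6% with the clone above and 21.4% with the clone below. At a difference of at least 2-fold, 5 of the 9 genes were higher; of all named genes 1.40% passed at least 2-fold higher and 2.45% at least 2-fold lower. The authors' deposited table gave signed linear folds of 5.50 for Id1, 2.83 for Id4, 2.48 for Bmp4, 2.38 for Smad6, 2.03 for Id2, 1.52 for Id3 and -1.71 for Grem1, the sign marking the direction. In the authors' deposited table the unadjusted p-values were 0.0579 for Bambi and 0.117 for Bmpr1a, the 2 largest of the 9.

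The rest of the pathway was read from lists ordered by role, 71 genes in all, of which 24 were higher in the clone, 9 lower and 38 not called; without the 9 genes above, 62 remained, with 18 higher and 8 lower and a median log2 difference of 0.03. Of all named genes 29.1% were called, and 52.8% of those at least as bright as the dimmest of the 9. Some genes hold 2 roles, and these are counted once in the totals and in both of their lists. Of 18 known targets, 13 were higher, 1 was lower and 4 were not called. Their median was 0.59, against -0.01 over all named genes. This list holds Id1, Id2, Id3, Id4, Smad6 and Bambi of the 9 genes, so its count is not separate from theirs. Of all named genes 14.5% were higher, and 26.9% of those at least as bright as the dimmest of the 9. Besides the Id genes and Smad6, the targets with the largest rises were Alpl, Dlx5 and Atoh8, a helix-loop-helix factor induced by BMP signals. Alpl, the alkaline phosphatase of mineralising cells, stood at 11.35 ± 0.03 in the clone and 7.93 ± 0.09 in the population (SD, n = 3 each). Atoh8 was at 10.11 ± 0.06 in the clone and 7.94 ± 0.27 in the population, 4.50-fold higher (SD, n = 3 each; limma adjusted p = 6.05e-05). Dlx5, a homeobox factor of osteoblasts, was 5.10-fold higher in the clone. The target that went the other way, named after its values were seen, was Msx2, a homeobox factor, at 4.54 in the clone and 5.20 in the population; the clone level was at the low end of the arrays, and relative to the median of its chromosome, 13, its difference was -0.53 over all named genes there and -0.09 over the brighter ones. Alpl, Dlx5 and Msx2 also respond to other signals in bone-forming cells. Which signals lay behind the differences of the 18 targets was not tested.

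The intracellular and membrane inhibitors counted 5 higher and 1 lower of 8, all of them brighter than the dimmest of the 9 BMP genes. At or above that level 26.9% of named genes were higher and 25.9% lower. Smad6 and Bambi are among the 9 genes, and both are also in the target list, as is Smad7. The count of inhibitors is thus not separate from those of the 9 genes and the targets. With Smad6, the second inhibitory Smad gene, Smad7, rose by 0.58 ± 0.05 (SE; limma adjusted p = 0.000444), and Smurf1, a ubiquitin ligase that marks BMP Smads for breakdown, rose by 0.75 ± 0.09. Smurf2, its relative, rose by 0.30 and Ski, a corepressor that binds Smads, by 0.22; leaving out clone array 1 ended both calls (adjusted p = 0.0586 and 0.0601), as did leaving out clone array 3 for Smurf2 (0.0575) and population array 2 for Ski (0.0563). The second, dimmer row of Smurf2 stood at 0.26 and was not called (adjusted p = 0.172). Skil, a further Smad corepressor, went the other way, at 7.55 ± 0.29 in the clone and 8.87 ± 0.11 in the population (SD, n = 3 each; limma adjusted p = 0.000869). Skil lies on chromosome 3, where the 543 brighter genes had a median of -0.42; its difference was -1.23 relative to all named genes there and -0.90 relative to the brighter ones.

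Secreted antagonists split, with 3 higher and 4 lower of 16, Grem1 among the lower ones, and a median of -0.04. Over all named genes 14.5% were higher and 14.5% lower. Chrdl1, a chordin-like BMP binder, had the largest rise among them, at 6.73 ± 0.11 in the clone and 4.98 ± 0.04 in the population (SD, n = 3 each; limma adjusted p = 1.19e-05); the population level lay below the array medians. Fst, which encodes follistatin, a binder of activins and some BMPs, was 2.01-fold higher in the clone, and Twsg1, a BMP binder that can act for or against the signal, was 1.39-fold higher. Nbl1, a relative of gremlin, had the largest fall, at 6.18 ± 0.26 in the clone and 8.09 ± 0.08 in the population (SD, n = 3 each; limma adjusted p = 0.000102), 3.74-fold lower. Fstl3, a follistatin relative, was lower by a smaller amount, with a log2 difference of -0.50. Nog, the noggin gene, was not called, at 4.37 in the clone and 4.38 in the population, both at the low end.

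Receptors and coreceptors gave 1 higher and 1 lower of 11, where 29.1% of all named genes passed in either direction. The coreceptor gene Rgma rose by 0.76 ± 0.11 (SE; limma adjusted p = 0.00243), with a population level of 5.27 near the array medians. Bmpr1b, the second BMP type I receptor gene, was lower, at 5.08 in the clone and 5.40 in the population (limma adjusted p = 0.00672); relative to the median of its chromosome, 3, the difference was -0.23 over all named genes there, and over the brighter ones the sign turned (0.10). Bmpr2, the BMP type II receptor gene, was not called, with a log2 difference of -0.25 (limma adjusted p = 0.0943). Among the Smads that carry the signal, Smad9 rose by 0.38 and Smad5 was lower, at 8.31 in the clone and 9.02 in the population (limma adjusted p = 0.00295). Smad5 lies on chromosome 13, and relative to the median there its difference was -0.57 over all named genes and -0.13 over the brighter ones. Smad1, at 8.06 in both groups, and Smad4 were not called.

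Of 5 helix-loop-helix genes listed beside the Id genes, 2 were higher and 1 lower, beside 29.1% of all named genes called and 52.8% of the brighter ones. They are genes of E proteins, the partners of Id proteins, and the Twist genes. Twist2, a helix-loop-helix repressor of osteoblast differentiation, was at 6.21 ± 0.04 in the clone and 4.57 ± 0.02 in the population (SD, n = 3 each; limma adjusted p = 4.12e-06); the population level lay near the lower quartiles, so the size of this rise is not exact. Its relative Twist1 was lower in the clone, at 6.46 ± 0.03, against 7.01 ± 0.12 in the population (SD, n = 3 each; limma adjusted p = 0.00171). The E protein gene Tcf3, listed in the files as Tcfe2a, rose by 0.27 (limma adjusted p = 0.0337). Leaving out clone array 2 or 3, or population array 2 or 3, ended this call (adjusted p between 0.0706 and 0.107).

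**Figure D3:**
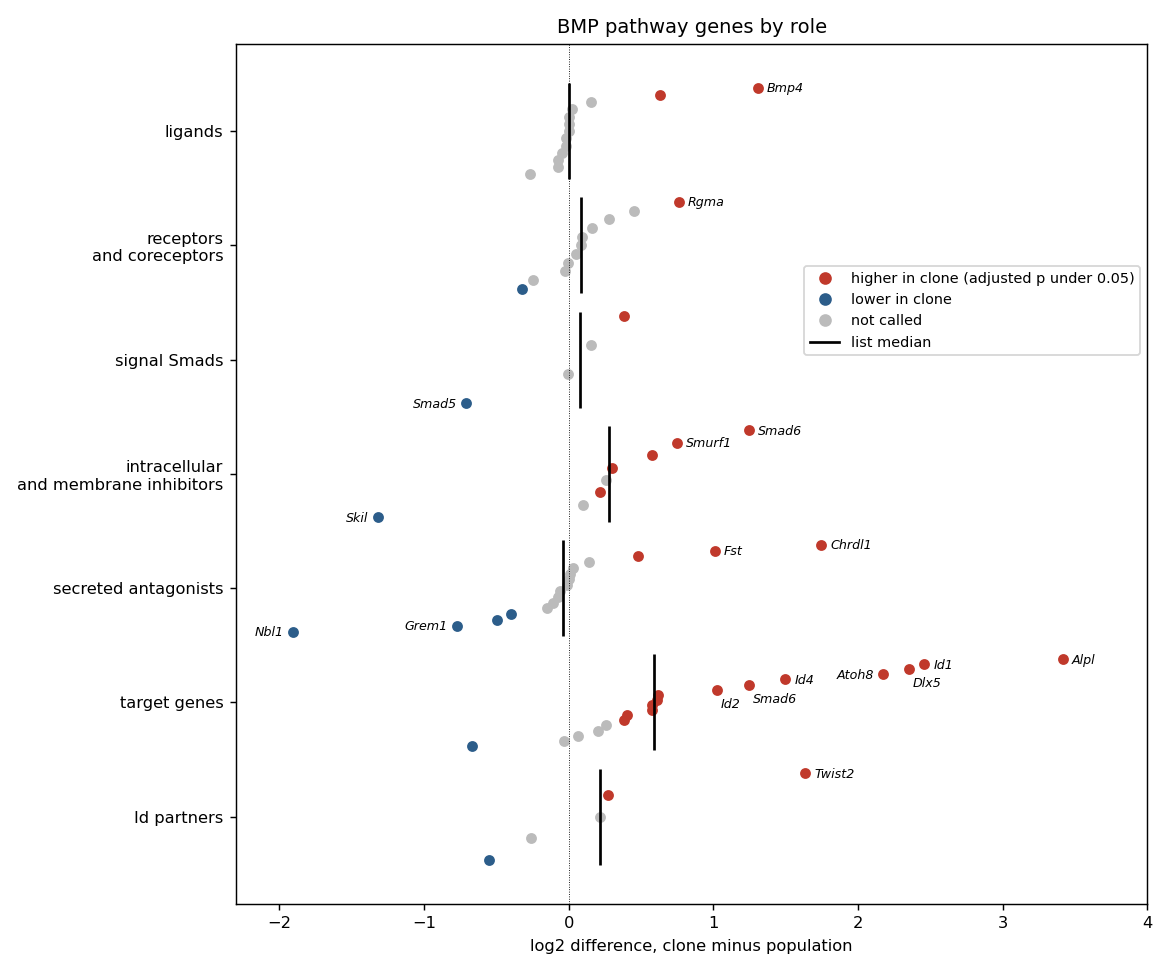
Log2 difference, clone minus population, of 71 BMP pathway genes by role (a gene with 2 roles is drawn in both); each point is a gene, red where higher in the clone, blue where lower and grey where not called, and the black line is the list median. Target genes extend furthest to the right, up to Alpl at 3.42, while secreted antagonists reach both sides, from Nbl1 at -1.90 to Chrdl1 at 1.74.

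The genes whose profile over the 6 arrays lay closest to Id1, among 20652 named genes each centred on its own mean, were Npnt, which encodes the matrix protein nephronectin, Slc5a3, a myo-inositol transporter, C1galt1, a glycosyltransferase, Ebf1, a transcription factor, and Dlx5. Their Euclidean distances were 0.19 for Npnt, 0.23 for Slc5a3, 0.25 for C1galt1 and 0.28 for both Ebf1 and Dlx5, in log2 units. Closest to Grem1 were Loxl4 at 0.14, Pxdc1 at 0.15, Stc2 at 0.15, Serpine2 at 0.16 and Ccl6 at 0.17. With 2 groups of 3 arrays, such likeness mostly reflects an equal difference between the groups: 2.29 to 2.59 for the genes near Id1 and -0.90 to -0.71 for those near Grem1.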

How the data were processed

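The authors deposited log2 expression values for 6 arrays, and the submitters' processing notes name RMA and Partek, without versions; no label or file header states the array type or build. Per the file headers, the authors' deposited table gives an unadjusted p-value and a signed linear fold score of clone over population per row. Taken to log2, that fold and the group mean difference were equal to within 7.81e-05. Another 6 columns of per-array values carry names found in no label and were left out.

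All 35556 rows were fitted with limma 3.58.1 (lmFit, eBayes) under R 4.3.3, with two-sided p-values, Benjamini-Hochberg adjustment over all rows and a threshold of 0.05; the fit was tested on simulated data. Depth has no meaning for arrays; their number limits the precision. Gene symbols are those the authors deposited (25123 rows), with older names updated through RefSeq (GRCm38.p6; 3890 rows) and 8 rows of unclear symbol kept apart. Of several rows for a gene, the brightest on average was taken.

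The 9 genes, the role lists and the tests were chosen with earlier results of these data known. Named pathway genes passed the test, at most 6 per list by size; others are said to be chosen afterwards or are given as not called. Likeness was ranked without predicted, RIKEN and pseudogene symbols. No pairing was used, because the labels do not say that the sample number pairs cultures. Same-numbered samples also did not deviate together (correlations of deviations from group means of -0.18, -0.14 and -0.04 for numbers 1, 2 and 3). Tried in turn were a replicate block, repeated quantile normalization, centred arrays, a filter on dim rows, trend with robust moderation, no moderation, a threshold of 0.01, a minimum fold of 1.5, the authors' p-values, rows averaged or taken singly, chromosome medians and leaving out each array.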

Additional observations from a re-analysis of the deposited data

How the results depend on the processing

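The differences of all 9 BMP genes kept their sign under every alternative, and Id1, Id2, Id4, Smad6 and Bmp4 kept their calls in all 16 tested ones. With a minimum fold of 1.5 (limma's treat), Id3 (0.61) and Grem1 (-0.77) were no longer called (adjusted p = 1 in both), so members called lower came to 0; pathway genes called came to 10 higher and 2 lower, or 5 and 2 without the 9 genes, and rows to 383 higher and 684 lower. With adjusted p under 0.01, 2531 rows were higher, against 4553. Leaving out single arrays gave Bambi differences from 0.17 to 0.33 and one call. The fit with the sample number as a replicate block changed no call among the 9 genes (Id1 2.46, adjusted p between 1.94e-06 and 0.00106 over the alternatives); among the other named genes it ended those of Ski (adjusted p = 0.0709) and Tcf3 (0.0899). Relative to the median of all named genes of the chromosome, differences were 2.45 for Id1, 0.67 for Id3, 1.63 for Id4, 1.29 for Smad6, 0.23 for Bambi and -0.23 for Bmpr1b, and all named pathway genes tried kept their sign. Relative to the brighter genes of the chromosome (added after seeing the data), they were 2.33 for Id1, 0.80 for Id3, 2.08 for Id4, 1.35 for Smad6 and 0.10 for Bambi, that of Bmpr1b turned to 0.10, and those of Smurf2, Tcf3 and Twsg1 came to 0.10, 0.07 and 0.26. With arrays centred on their medians, rows called are 3818 higher and 4367 lower, against 4553 and 3893. Signals near or below the array medians in a group limit the sizes for Id4, Grem1, Bmp5, Chrdl1, Rgma, Msx2, Bmpr1b and Twist2.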
